A study of Mus musculus with 6 samples.

Results

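The 60 genes described here act in G2 and mitosis, the last steps of the cell cycle. They were chosen by function, but with earlier results of these data known. Shares of all tested genes are therefore given beside them for scale only, not as a test of the set. All 60 were found by symbol among the 27179 gene numbers of the deposited count table, and all 60 passed the filter on low counts. RNA was sequenced from CD8+ T cells of gBT-I mice, whose transgenic T cell receptor recognises a herpes simplex virus peptide, and the series asks how butyrate alters gene expression in these cells. Per the labels, whole spleen cells from transgenic mice kept specific pathogen free were activated in culture with the peptide and lipopolysaccharide, received IL-2 on each day from day 2 to day 5, and were harvested on day 6. All 6 libraries share the transgene, the activation and the IL-2. The 3 butyrate libraries came from cultures that also received butyrate from day 3, and the 3 control libraries from cultures described without it. Butyrate is a short-chain fatty acid that inhibits histone deacetylases. The sources used here do not state the butyrate dose, the age of the mice, any sorting of the cells or the number of mice behind the replicates. The p-values therefore measure only the spread between these libraries, which may be technical.

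Library totals ran from 5415021 to 6244350 counts in control and from 5383380 to 5809517 with butyrate. Levels below are in CPM, counts scaled to a common library size by TMM, which adjusts for library total and composition. A log2 fold change is the log2 level with butyrate minus that in control. Of 8 CD8+ T cell markers, 1 fell (Cd3e), and their summed level was 5837 to 6121 CPM in control and 5236 to 6408 CPM with butyrate. The other CD8+ T cell markers were not called, with log2 fold changes from -0.90 (Cd3g) to 0.31 (Trac). Trac and Thy1 had the highest levels in that sum. Markers of other spleen cells were low. Summed levels went from 21.9 to 76.7 CPM in control to 82.7 to 94.4 CPM with butyrate for 10 macrophage and dendritic cell markers (4 tested, 1 rose), and from 6.48 to 9.41 CPM to 17.0 to 22.5 CPM for 6 NK cell markers (3 tested, 2 rose, Klra8 at 0 in control). For 8 erythroid markers (3 tested, 2 rose, Alas2 and Slc4a1 at 0 in control) they were 0.742 to 2.43 CPM and 9.11 to 46.0 CPM, and for 8 granulocyte markers (1 tested and rose, Camp and Ltf at 0 in all libraries) 0 to 0.973 CPM and 3.51 to 8.13 CPM. For 8 B cell markers (2 tested, 1 rose, Pax5 at 0 in all libraries) they were 15.2 to 21.3 CPM and 14.2 to 22.4 CPM, and for 4 CD4 T cell markers (3 tested, 2 rose) 74.0 to 83.2 CPM and 121 to 130 CPM. Most of the CD4 T cell sum was Zbtb7b, with means of 69.8 CPM in control and 117 CPM with butyrate. Cd4 itself rose from a mean of 0.61 to 4.63 CPM, and Cd40lg, not called, went from 7.27 to 4.85 CPM. The part of these other spleen cells in the results below was not tested.

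A cell enters mitosis when cyclin B and the kinase CDK1 become active, helped by polo-like and Aurora kinases. Condensin then compacts the chromosomes, the spindle attaches to them at their kinetochores, and a checkpoint holds back separation until every kinetochore is attached. The anaphase-promoting complex (APC/C), a ubiquitin ligase, then starts separation by marking securin and cyclin B for destruction, and cytokinesis divides the cell. Genes of this program are transcribed together late in the cell cycle, and activated CD8+ T cells are known for rapid rounds of division.

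With butyrate, RNA of most G2 and mitosis genes was lower. Of the 60 genes, 53 fell, 1 rose and 6 did not pass the test (edgeR's quasi-likelihood F test, Benjamini-Hochberg adjusted p under 0.05 over all 11740 genes tested). Among all tested genes, 22.5% were called lower and 23.5% higher, 45.9% in all. The median log2 fold change of the 60 was -0.85, with a range of -1.63 to 0.38, while the median of all tested genes was 0.0034. By at least 2-fold, 17 of the 60 fell, against 3.33% of all tested genes. The butyrate libraries all lay below the control libraries for 54 of the 60, against 28.2% of all tested genes, and all above them for 1, against 28.9%. Less RNA per cell and fewer cells in these phases cannot be told apart in bulk samples.

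The 60 genes took 1.63%, 1.61% and 1.64% of the counts in control replicates 1, 2 and 3, and 1.14%, 1.09% and 0.866% in butyrate replicates 1, 2 and 3. The control libraries were close to each other, and butyrate replicate 3 stood lowest. Of the butyrate libraries, replicate 3 held the lowest value for 51 of the 60 genes, against 37.6% of all tested genes. Relative to the control means, the genes had a median level of 58.0%, 59.6% and 50.8% in butyrate replicates 1, 2 and 3. Without replicate 3 the median log2 fold change was -0.78 and 51 genes were called lower. The summed erythroid markers were highest in butyrate replicate 3, at 46.0 CPM against 10.7 and 9.11 CPM in replicates 1 and 2. Most of the sum in replicate 3 was the globin gene Hbb-b1, at 31.4 CPM against 2.96 and 1.89 CPM in replicates 1 and 2. A link between these markers and the low levels of the 60 genes in replicate 3 was not tested.

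**Figure D1:**
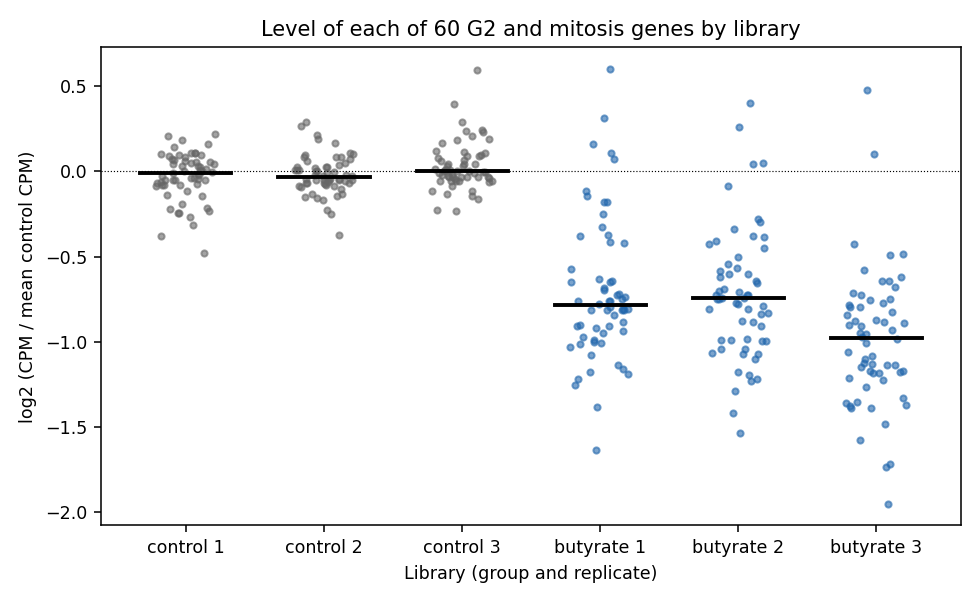
Each point is 1 of the 60 G2 and mitosis genes in 1 library, as log2 of its CPM over its mean control CPM, with the median as a black bar. Butyrate replicates 1 and 2 have medians of -0.79 and -0.75, and replicate 3 has a median of -0.98.

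Genes of each step fell, where 22.5% of all tested genes were called lower and 23.5% higher. The entry genes fell in 11 of 13 with 1 higher (median log2 fold change -0.99), the chromosome structure genes in 7 of 8 (-0.69) and the spindle genes in 11 of 11 (-0.89). Kinetochore and passenger complex genes fell in 9 of 10 (-0.80), checkpoint and anaphase genes in 6 of 9 (-0.65), and cytokinesis genes in 9 of 9 (-0.91). The steps overlapped in their ranges, and differences between them were not tested.

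**Figure D2:**
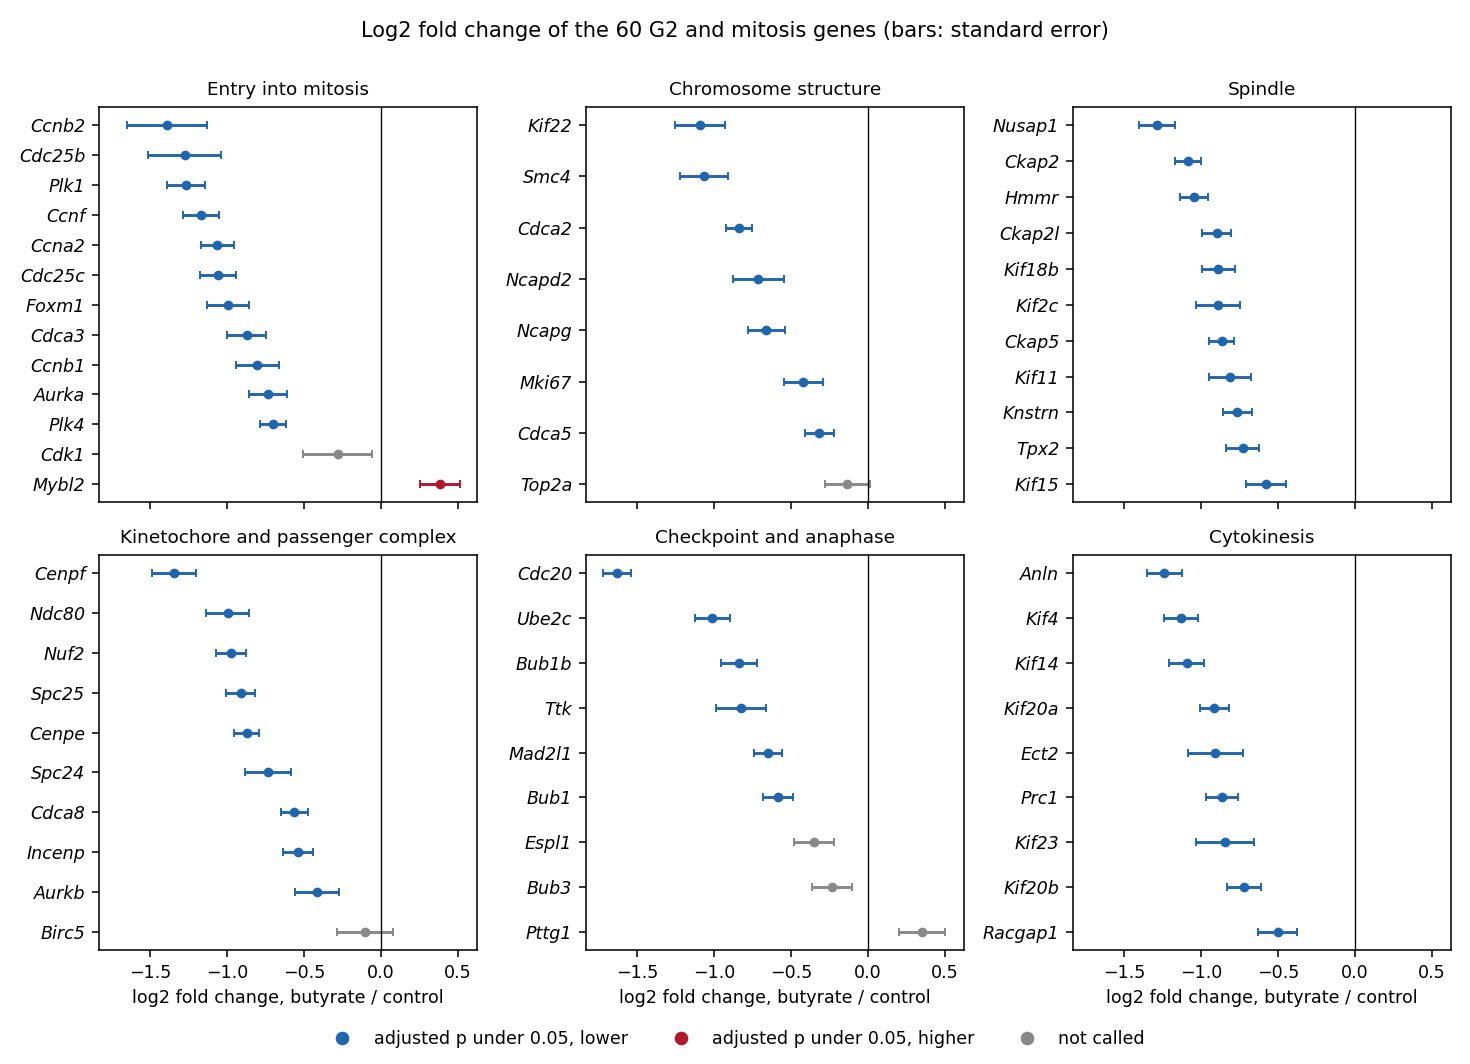
Points are log2 fold changes of butyrate over control for the 60 genes by step, with standard errors as bars (3 libraries per group), blue for genes called lower, red for higher and grey for not called. Cdc20 lies farthest to the left at -1.63, and Mybl2 and Pttg1 lie to the right of 0.

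The promoters of many genes of this program are known to carry a short element called CHR, bound by the MuvB complex, often beside CCAAT boxes bound by NF-Y. MuvB takes part in repression of such genes in resting cells, as part of DREAM, and in their activation with B-MYB and FOXM1 in dividing cells. The data here hold no measure of binding. In RefSeq promoter windows (GRCm38.p6, 250 bases before to 50 bases after each start site), 50 of the 60 genes were matched. CHR letters, TTTGAA or TTTAAA on either strand, were found in 42 of the 50 (84%), against 30.6% of all 27025 genes with a window and 22.1% of the 9123 tested genes with a window. CCAAT on either strand was found in 36 of the 50 (72%), against 41.1% and 43.4%. Both were found in 34 of the 50 (68%), against 12.2% and 9.12%. TTTAAA is its own reverse complement, and CCAAT and CHR letters can share an end letter. Among tested genes with a window, CHR letters were in 25.9% of those called lower and 20.1% of those called higher. The 42 G2 and mitosis genes with CHR letters had a median log2 fold change of -0.86 (range -1.63 to -0.10). The 8 without had -0.71 (range -1.29 to 0.38), and Mybl2 and Pttg1 are among them. The ranges overlapped, and the difference was not tested. CHR letters were in 37 of the 43 genes with a window that fell (86%). They were also in 5 of the 7 that rose or did not pass the test (71.4%).

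Shown are the 250 bases before the start site of the 4 genes with the smallest p among those that fell and had CHR letters in that stretch, to show where these letters lie in genes that fell. Hmmr, Nusap1, Cenpe, Anln and Kif4 had smaller p than Plk1 but no CHR letters in that stretch. Capitals mark CHR letters and CCAAT boxes, or their reverse complements TTCAAA and ATTGG. Cdc20 (chr4:118437344-118437593, minus strand) has TTTGAA at 18 bases and CCAAT at 53 and 8 bases before the start. Ckap2 (chr8:22185820-22186069, minus strand) has TTTGAA at 101 and ATTGG at 20 bases. Ckap5 (chr2:91526512-91526761, plus strand) has TTCAAA at 45 and CCAAT at 35 bases, with TTTAAA farther off. Plk1 (chr7:122159185-122159434, plus strand) has TTTAAA at 89 and 29 bases and CCAAT at 14 bases.
Cdc20: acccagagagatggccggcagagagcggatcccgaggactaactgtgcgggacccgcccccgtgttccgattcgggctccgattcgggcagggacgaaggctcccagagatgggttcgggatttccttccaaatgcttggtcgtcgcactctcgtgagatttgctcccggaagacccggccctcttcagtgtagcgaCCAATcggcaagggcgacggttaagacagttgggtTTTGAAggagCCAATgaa
Ckap2: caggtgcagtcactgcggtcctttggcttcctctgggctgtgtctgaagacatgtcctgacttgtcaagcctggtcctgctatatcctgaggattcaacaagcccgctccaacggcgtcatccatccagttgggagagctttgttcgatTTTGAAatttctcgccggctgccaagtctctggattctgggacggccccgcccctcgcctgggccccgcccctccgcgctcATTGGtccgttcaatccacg
Ckap5: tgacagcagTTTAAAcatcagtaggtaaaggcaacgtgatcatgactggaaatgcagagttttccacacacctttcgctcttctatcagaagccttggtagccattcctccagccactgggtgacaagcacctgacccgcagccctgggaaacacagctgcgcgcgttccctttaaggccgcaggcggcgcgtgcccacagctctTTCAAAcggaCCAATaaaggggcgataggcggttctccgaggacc
Plk1: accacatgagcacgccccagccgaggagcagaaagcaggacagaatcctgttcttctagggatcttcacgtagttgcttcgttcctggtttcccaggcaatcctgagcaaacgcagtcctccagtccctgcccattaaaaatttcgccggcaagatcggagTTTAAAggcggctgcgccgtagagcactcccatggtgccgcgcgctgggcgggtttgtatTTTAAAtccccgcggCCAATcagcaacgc

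Entry into mitosis. Plk1 (gene 18817, chromosome 7, 122159435 to 122169884), a polo-like kinase that drives entry and centrosome maturation, stood at 230, 252 and 233 CPM in control replicates 1 to 3 and at 113, 104 and 80.0 CPM in butyrate replicates 1 to 3. The groups were well apart, and Plk1 fell by 1.27 on the log2 scale (SE 0.125, edgeR adjusted p = 0.00012). Ccna2, which encodes cyclin A2, stood at 619, 583 and 737 CPM in control and at 321, 324 and 284 CPM with butyrate, a log2 fold change of -1.06. Ccnf, which encodes cyclin F, the substrate receptor of a ubiquitin ligase, stood at 215, 211 and 236 CPM in control and at 115, 94.1 and 85.2 CPM with butyrate, a log2 fold change of -1.17. For each of these genes the highest butyrate library lay far below the lowest control library.

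The B-type cyclins, the direct partners of CDK1, fell as well. Ccnb2 fell by 1.39, but its control libraries were uneven, at 114, 123 and 241 CPM, against 61.2, 59.7 and 62.5 CPM with butyrate. The log2 fold change became -0.95 once control replicate 3 was left out. Ccnb1 fell by 0.80, from 133 ± 21.3 to 76.1 ± 10.3 CPM (SD, n = 3). A Ccnb1 pseudogene on chromosome 7, Ccnb1-ps, was counted at 137 ± 1.05 and 69.7 ± 6.52 CPM, a log2 fold change of -0.98. The sources do not state how reads shared by both were assigned, so the level of Ccnb1 is uncertain.

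Of the phosphatases that remove inhibitory phosphates from CDK1, Cdc25b fell by 1.28, from 434, 364 and 348 CPM in control to 218, 156 and 98.9 CPM with butyrate, the widest relative spread among the butyrate libraries. Cdc25c, with the lowest CPM of the phosphatases, fell by 1.06, from 27.5 ± 1.42 to 13.2 ± 0.902 CPM (SD, n = 3). Foxm1, a transcription factor of G2 and mitosis genes, fell (-0.99), as did Cdca3, a trigger of mitotic entry (-0.87). The Aurora kinase gene Aurka (-0.73) and Plk4, the kinase of centriole duplication (-0.70), fell too.

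Cdk1 itself, the kinase that the cyclins activate, did not pass the test. It stood at 157, 215 and 242 CPM in control and at 181, 210 and 114 CPM with butyrate, so the groups overlapped (log2 fold change -0.28, SE 0.224, edgeR adjusted p = 0.333). Mybl2 (gene 17865, chromosome 2, 163054327 to 163084688), which encodes B-MYB, the activating partner of MuvB, was the 1 gene of the 60 that rose. It stood at 49.9, 58.1 and 54.2 CPM in control and at 81.9, 71.4 and 58.0 CPM with butyrate, with butyrate replicate 3 inside the control range (log2 fold change 0.38, SE 0.13, edgeR adjusted p = 0.0389). The edgeR call of Mybl2 was lost without control replicate 1 (0.34, adjusted p = 0.0967) or 3 (0.39, 0.074), and without butyrate replicate 1 (0.26, 0.115) or 2 (0.37, 0.0973), while its adjusted p ranged from 0.00841 to 0.115 over all alternatives.

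**Figure D3:**
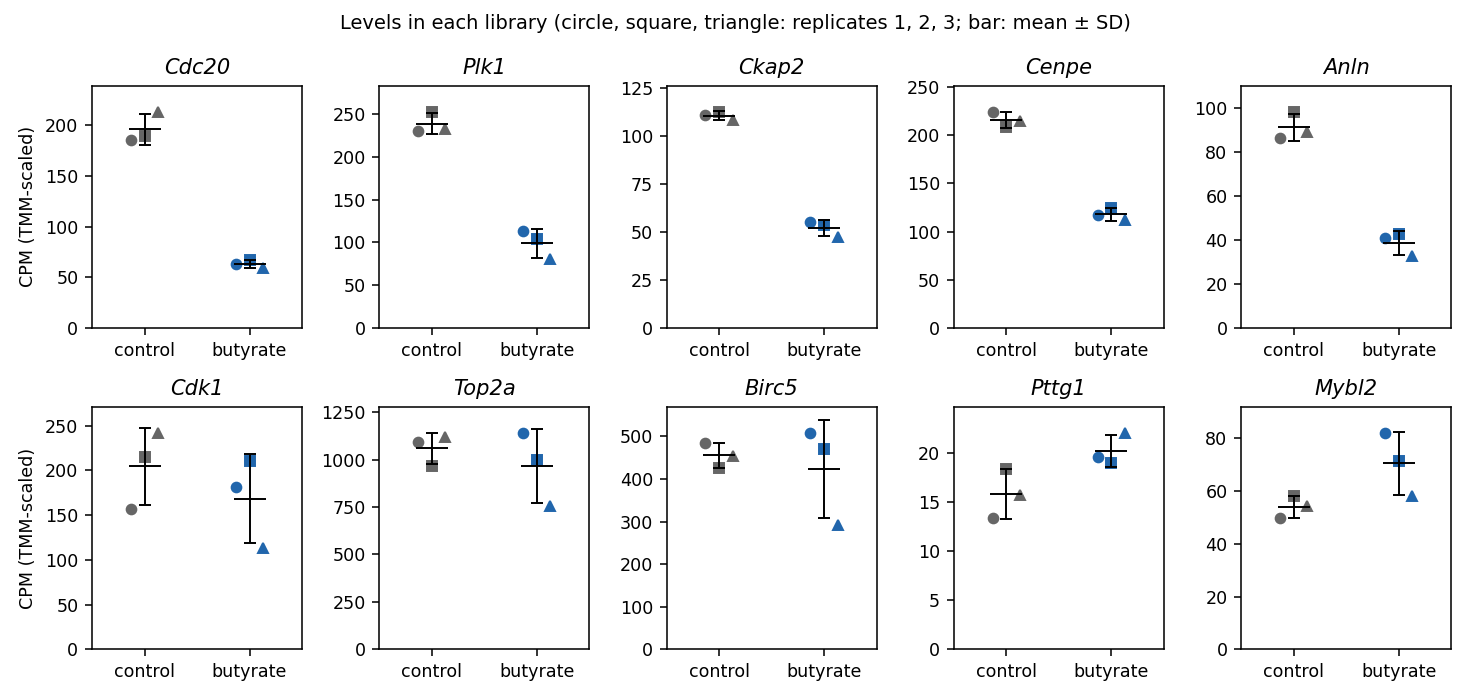
TMM-scaled CPM of 10 genes in each library, with replicates 1, 2 and 3 as circles, squares and triangles and mean ± SD as bars, each vertical axis starting at 0. The upper row shows 5 genes whose groups were apart, such as Cdc20 at 185 to 214 CPM in control and 59.7 to 67.6 CPM with butyrate, and the lower row shows Cdk1, Top2a, Birc5, Pttg1 and Mybl2.

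Chromosome structure. Smc4, a core ATPase of condensin, stood at 535, 529 and 423 CPM in control and at 219, 295 and 197 CPM with butyrate, -1.06 as log2 fold change (SE 0.159, edgeR adjusted p = 0.000826). Ncapd2 (-0.71) and Ncapg (-0.66), non-ATPase subunits of condensin I, fell as well. Cdca2, which recruits a phosphatase to chromatin, stood at 144, 154 and 146 CPM in control and at 87.3, 84.6 and 76.3 CPM with butyrate, a log2 fold change of -0.84 with little spread in either group. Kif22, a kinesin that binds chromosome arms, stood at 145, 186 and 131 CPM in control and at 69.9, 86.5 and 59.9 CPM with butyrate, a log2 fold change of -1.09.

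Other genes of this step were less changed. Top2a, the topoisomerase that untangles sister chromatids, did not pass the test, with 1094, 965 and 1118 CPM in control and 1140, 999.5 and 755.6 CPM with butyrate. Only butyrate replicate 3 lay below the control range, and the log2 fold change was -0.13 (SE 0.146, edgeR adjusted p = 0.48) with all libraries and 0.014 without that one. Mki67, which encodes the proliferation marker Ki-67, stood at 3282, 3292 and 3110 CPM in control and at 2719, 2548 and 1970 CPM with butyrate, and fell by 0.42 (edgeR adjusted p = 0.0236). Its groups did not overlap, but the call was lost without control replicate 1 (-0.40, adjusted p = 0.061) or 2 (-0.40, 0.0653), and with upper quartile scaling (-0.34, 0.0512), with a lowest adjusted p of 0.00432 over the alternatives. Cdca5, which encodes sororin, a protector of sister chromatid cohesion, fell by 0.32 (edgeR adjusted p = 0.0221). The call of Cdca5 was lost with upper quartile scaling and without any 1 of the libraries other than butyrate replicate 1, with log2 fold changes of -0.33 to -0.23 and adjusted p of 0.0505 to 0.0637, and its lowest adjusted p was 0.0107.

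Spindle. All 11 spindle genes fell, and none of their calls was lost under the 15 alternatives. Ckap2 (gene 80986, chromosome 8, 22168149 to 22185819), a microtubule-associated protein, stood at 111, 112 and 108 CPM in control and at 55.1, 53.6 and 47.3 CPM with butyrate, -1.08 as log2 fold change (SE 0.0868, edgeR adjusted p = 5.1e-05). Hmmr, which helps to build spindle poles, stood at 238, 227 and 248 CPM in control and at 127, 113 and 106 CPM with butyrate, a log2 fold change of -1.05. Nusap1, which bundles spindle microtubules, stood at 280, 373 and 342 CPM in control and at 139, 142 and 126 CPM with butyrate, a log2 fold change of -1.29. In these 3 genes every butyrate library lay far under each control library, with replicate 3 the lowest.

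The other spindle genes had log2 fold changes of -0.90 to -0.58. They include the motor genes Kif18b (log2 fold change -0.89), Kif2c (-0.89), Kif11 (-0.81) and Kif15 (-0.58). Kif2c depolymerises microtubules, and Kif11 and Kif15 push the spindle poles apart. Ckap2l (-0.90), Ckap5, a microtubule polymerase (-0.86), Knstrn (-0.76) and Tpx2, the activator of Aurora A (-0.73), fell too. The 10 genes of the 60 with a Kif symbol, all kinesins, fell, against 22.5% of all tested genes. Their log2 fold changes were -1.13 to -0.58.

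Kinetochore and passenger complex. Cenpe, a kinesin that carries chromosomes to the spindle equator, stood at 224, 209 and 215 CPM in control and at 117, 125 and 112 CPM with butyrate, -0.87 as log2 fold change (SE 0.0797, edgeR adjusted p = 8.96e-05). Cenpf, a large kinetochore protein, had control libraries within 459 to 461 CPM and butyrate libraries at 202, 203 and 138 CPM, and its log2 fold change of -1.34 was the largest of this step. The 4 subunits of the NDC80 complex, the main grip of the kinetochore on microtubules, all fell. Nuf2 stood at 97.2, 95.2 and 108 CPM in control and at 53.3, 54.3 and 45.1 CPM with butyrate, a log2 fold change of -0.97. Spc25 stood at 101, 91.3 and 90.5 CPM in control and at 47.3, 54.9 and 48.1 CPM with butyrate, a log2 fold change of -0.91. The other subunits, Ndc80 (-0.99) and Spc24 (-0.73), fell too.

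The chromosomal passenger complex corrects faulty attachments, and its 4 genes had log2 fold changes of -0.56 to -0.10. Cdca8, which encodes borealin (-0.56), and the scaffold gene Incenp (-0.54) fell. Aurkb, its kinase, stood at 240, 235 and 255 CPM in control and at 225, 178 and 145 CPM with butyrate, and fell by 0.41 (SE 0.144, edgeR adjusted p = 0.0422). The groups of Aurkb did not overlap, but the edgeR call was lost without any 1 of the libraries other than butyrate replicate 1 (adjusted p of 0.0739 to 0.11), with upper quartile scaling (0.0838) and with the stricter filter (0.0548), and the lowest value was 0.00367. Without butyrate replicate 3 its log2 fold change was -0.27. Birc5, which encodes survivin, did not pass the test, with 484, 427 and 454 CPM in control and 508, 471 and 291 CPM with butyrate (a log2 difference of -0.10, SE 0.182, edgeR adjusted p = 0.663). Its butyrate replicates 1 and 2 lay above the control mean, and without butyrate replicate 3 the log2 fold change was 0.10.

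Checkpoint and anaphase. Cdc20 (gene 107995, chromosome 4, 118432901 to 118437343), the APC/C activator that the checkpoint holds in check, had the largest fall of the 60. It stood at 185, 190 and 214 CPM in control and at 63.1, 67.6 and 59.7 CPM with butyrate, -1.63 as log2 fold change (SE 0.0918, edgeR adjusted p = 2.515e-05). Both groups were tight against that distance. Ube2c, the ubiquitin-conjugating enzyme of the APC/C, stood at 232, 270 and 306 CPM in control and at 142, 135 and 123 CPM with butyrate, a log2 fold change of -1.01.

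Of the checkpoint genes proper, Bub1b, which encodes BUBR1, stood at 195, 231 and 181 CPM in control and at 117, 122 and 101 CPM with butyrate, a log2 fold change of -0.84. Ttk, the checkpoint kinase also called MPS1, fell (-0.82), as did Mad2l1, which encodes MAD2 (-0.65), and the kinase gene Bub1 (-0.58). Bub3, a partner of BUB1 and BUBR1, did not pass the test, with 166, 163 and 158 CPM in control and 171, 123 and 121 CPM with butyrate (a log2 difference of -0.23, SE 0.132, edgeR adjusted p = 0.179). Its butyrate replicate 1 lay above every control library, and without it Bub3 was called lower (-0.42, adjusted p = 0.00483, the lowest of a range that reached 0.426).

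Separase and its inhibitor securin did not pass the test. Espl1, the separase gene, stood at 217, 198 and 209 CPM in control and at 188, 172 and 130 CPM with butyrate. These groups did not overlap (log2 fold change -0.35, SE 0.129, edgeR adjusted p = 0.0528), and Espl1 was called lower in 6 of 15 alternatives, including the fit with replicate numbers as a block, in which 54 of the 60 genes and 26.4% of all tested genes were called lower (-0.36 for Espl1, adjusted p = 0.0166, the lowest of a range that reached 0.126). Pttg1, which encodes securin, stood at 13.3, 18.4 and 15.7 CPM in control and at 19.6, 18.9 and 21.99 CPM with butyrate. It was the 1 gene of the 60 whose butyrate libraries all lay above the control libraries, by a narrow margin (log2 fold change 0.35, SE 0.148, edgeR adjusted p = 0.0809). Pttg1 was called higher with upper quartile scaling (0.43, adjusted p = 0.0395) and without control replicate 2 (0.47, 0.0458), and its highest adjusted p was 0.214.

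Cytokinesis. All 9 genes of this step fell, and their calls were kept under each alternative run. Anln, which encodes anillin, an organiser of the contractile ring, stood at 86.6, 98.5 and 89.4 CPM in control and at 40.9, 42.6 and 32.7 CPM with butyrate, -1.24 as log2 fold change (SE 0.115, edgeR adjusted p = 9.38e-05). Kif4, a motor that sets the length of the central spindle, stood at 133, 132 and 125 CPM in control and at 66.4, 62.2 and 49.7 CPM with butyrate, a log2 fold change of -1.13. Kif14, a motor of the midbody, stood at 128, 123 and 122 CPM in control and at 64.4, 62.4 and 47.9 CPM with butyrate, a log2 fold change of -1.09. In all 3 butyrate replicate 3 was the lowest, and no butyrate library came near the control range.

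Of the other genes of this step, Kif20a (log2 fold change -0.91), Prc1, which bundles the central spindle (-0.86), and Kif20b (-0.72) fell. Ect2, the exchange factor that activates RhoA at the division plane, fell by 0.91. The centralspindlin genes Kif23 (-0.84) and Racgap1 (-0.50) fell as well. Kif23 had uneven control libraries, at 84.3, 87.0 and 134 CPM, and without control replicate 3 the value was -0.59.

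Levels were compared between genes per length. Per kilobase of merged GENCODE exons, Mki67 had the highest mean level in both groups (321 CPM per kilobase in control and 240 with butyrate). In control, Ccna2 (158), Birc5 (134) and Top2a (117.5) came next, and with butyrate Birc5 (124), Top2a (107) and Ccna2 (75.9). Cdc20 went from rank 7 (105 CPM per kilobase) to rank 18 (34.0), and Cdca5 from rank 14 (84.0) to rank 5 (67.5). Cdc25c had the lowest level in both groups, at 5.60 and 2.69 CPM per kilobase. Merged exons overstate the length of genes with several transcript ends, so ranks of single genes are approximate. Exons of 10 of the 60 genes overlap those of a counted gene on the other strand, by 53 bases (Cdc20) to 1271 bases (Kif20a, with the APC/C gene Cdc23). The sources do not state whether counting used the strand.

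Genes of the same pathway outside the 60 were read from lists drawn up by function, also with earlier results of these data known. Of 174 tested of 175 listed, 96 fell and 9 rose (median log2 fold change -0.33), where 22.5% of all tested genes were called lower and 23.5% higher. Centromere and kinetochore genes fell in 23 of 30, and the other 7 were not called (median -0.65). They were led by Cenpl, a subunit of the constitutive centromere network, from 97.4 ± 7.16 to 42.0 ± 3.17 CPM (SD, n = 3). Condensin and cohesin genes fell in 14 of 20, and the other 6 were not called (median -0.43). The falls were led by the protectors of centromeric cohesion Sgo2a (-1.14) and Sgo1 (-0.93). Spindle and centrosome genes fell in 22 of 36 and rose in 1 (median -0.37). Aspm, a spindle pole protein (-1.55), and Troap (-0.98) fell, while Tubg1, which encodes gamma-tubulin, rose by 0.34.

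Each of the lists below held 1 to 3 genes that rose, a smaller share than the 23.5% of all tested genes called higher. Kinases, phosphatases and partners of entry and exit fell in 11 of 23 and rose in 3 (median log2 fold change -0.32). Pimreg went from 210 ± 26.8 to 49.5 ± 9.86 CPM (SD, n = 3) and fell by 2.08, and Nek2, a centrosome kinase gene, fell by 0.88, while its relatives Nek6 and Nek7 rose by 1.42 and 0.55. Checkpoint and APC/C genes fell in 10 of 27 and rose in 3 (median -0.17). Fzr1, the APC/C activator that acts after Cdc20, fell (-1.01), as did Mad1l1 (-0.82), while the deubiquitinase gene Usp44 rose by 1.43 and the subunit gene Anapc11 by 0.49. Genes of MuvB, DREAM and their partners fell in 5 of 14 and rose in 1 (median -0.09), with Rbl1, which encodes p107, at -0.67, Lin9, a MuvB subunit, at -0.65, and Tfdp1, the partner of E2F factors, at 0.48. Cytokinesis genes fell in 11 of 24 and rose in 1 (median -0.26). Cntrl (-1.02) and Cep55, which acts in abscission (-0.75), fell, while Kif13a rose from 3.49 ± 0.8 to 9.35 ± 1.32 CPM.

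DNA replication genes of S phase, the step before G2, are given beside these for comparison. Of 56 tested, 10 fell and 8 rose, both smaller shares than the 22.5% lower and 23.5% higher among all tested genes, with a median log2 fold change of 0.0003. The thymidylate synthase gene Tyms (-0.60) and the thymidine kinase gene Tk1 (-0.43) fell, and the helicase subunit gene Mcm6 and Rpa1 rose by 0.56 and 0.37. With upper quartile scaling 3 of these genes fell and 13 rose, while 50 of the 60 G2 and mitosis genes were still called lower, against 17.6% of all tested genes, and 2 were called higher, against 28.4%. That scaling moved the share of higher genes among all calls from 51.1% to 61.8%. The difference between the lists was not tested.

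**Figure D4:**
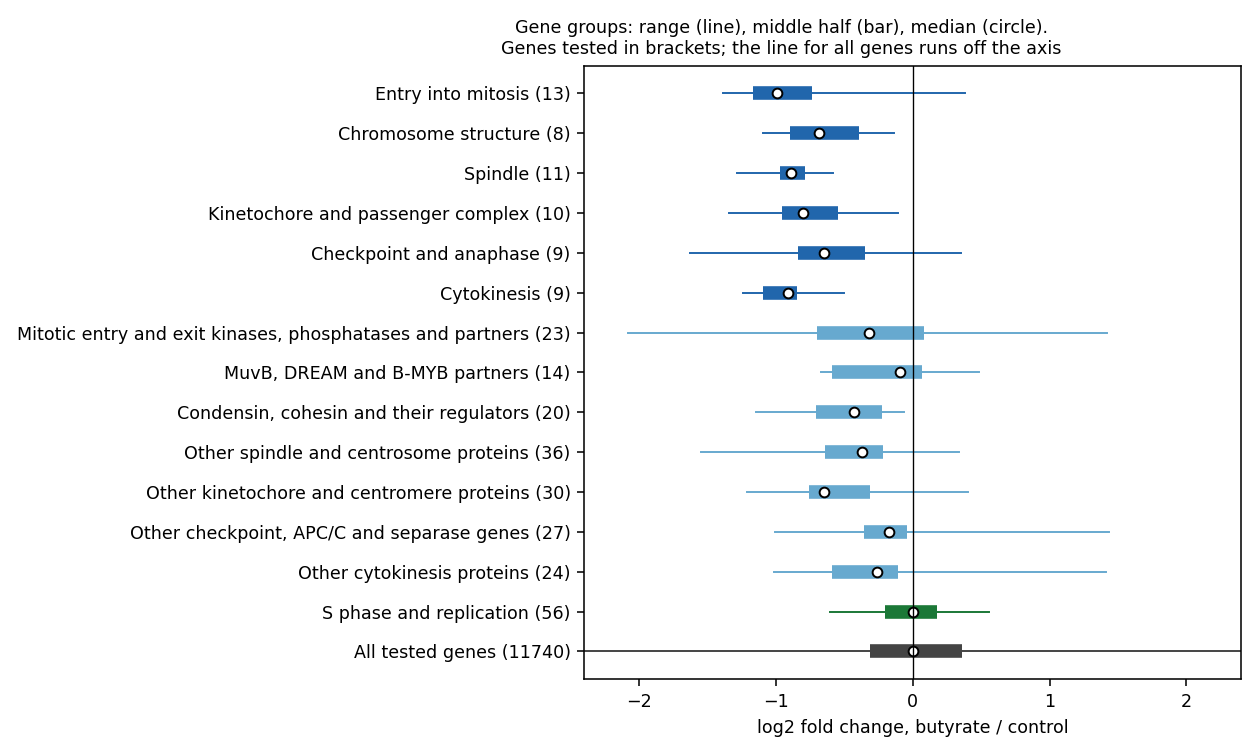
Log2 fold changes of butyrate over control in each group of genes, with lines from the lowest to the highest gene, bars from the first to the third quartile and circles at the median. The 6 steps of the 60 genes have medians of -0.99 to -0.65, the 7 other mitosis lists -0.65 to -0.09, and the S phase list and all tested genes lie at 0.0003 and 0.0034.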

How the data were processed

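Counts of reads by gene number for the 6 libraries were deposited by the authors, without normalization. Tools named in the submitters' processing notes are featureCounts, Subread, TopHat, CASAVA, Picard and edgeR, with the build mm10. Their versions, parameters, strand setting and handling of shared reads are not stated there. Symbols and coordinates came from RefSeq (GRCm38.p6), which named 25275 of 27179 gene numbers; the 1904 others stayed in the tests. Columns were matched to samples by the label that names each.

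Butyrate was compared with control by edgeR 4.0.16 (R 4.3.3) with its quasi-likelihood F test, TMM scaling and filterByExpr, which left 11740 genes. Standard errors are the log2 fold change over the square root of F. The procedure was also run on simulated counts. These had far fewer changed genes than were called here and libraries drawn independently, so they do not check it for data like these. The 60 genes, their steps and the pathway lists were chosen with earlier results of these data known. Values per library are given, per step, for the 3 called genes with the smallest p and for each gene called higher or not called, and in each pathway list up to 2 called genes per direction are named. Values of some listed genes are not reported here. Genes with values of single libraries beyond this rule (Ccnb2, Cdc25b, Mki67, Cenpf, Aurkb and Kif23) were chosen after their values were seen. Promoter stretches were taken upstream of the start site only.

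Within groups, counts varied beyond sampling noise (chi-square over its degrees of freedom, 5.43 to 10.6), so no pair of libraries was counted as 1 sample; this does not show whether their spread is biological or technical. Control and butyrate libraries of the same replicate number deviated from their group means together. Correlations over tested genes were 0.362, 0.197 and 0.353 for numbers 1, 2 and 3, and -0.301 to -0.0746 for pairs of unlike number. The main fit, which gave the calls, standard errors and p-values above unless stated, did not use this pairing. A fit with the numbers as a block was run as 1 of the alternatives. The pairing comes from these data, since the labels do not tie a number to a mouse or day. The 15 alternatives were 3 other scalings (RLE, upper quartile, total count), no filter, a stricter filter (5 CPM or more, 3 libraries), robust edgeR, limma voom (limma 3.58.1), DESeq2 1.42.0, the replicate block and each library left out in turn.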

Additional observations from a re-analysis of the deposited data

How the results depend on the processing

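Of the 53 G2 and mitosis genes called lower, 50 were called lower under each of the 15 alternatives, the exceptions being Mki67, Cdca5 and Aurkb. The count was 50 to 54 with another scaling, filter or tool and 50 to 55 with 1 library left out, and the median log2 fold change lay between -0.91 and -0.77. With the replicate block 54 were called lower, all 53 among them, and the block changed no other call of the 60 genes than that of Espl1. The count called higher was 2 with upper quartile scaling and 0 to 2 with 1 library left out. Top2a and Birc5, not called in any fit, changed sign without butyrate replicate 3 (log2 fold changes of 0.014 and 0.10). With each library left out in turn they ranged from -0.27 to 0.014 and from -0.26 to 0.10. The share of counts with butyrate over that in control was 0.632, and 0.600 to 0.683 with 1 library left out. Alternatives for the lists outside the 60 genes were added after the data were seen. S phase genes called lower numbered 3 with upper quartile scaling and 4 to 8 with 1 library left out, and those called higher 13 with upper quartile scaling, 5 with no filter and 4 to 8 with 1 library left out. Cdc25c, Ttk and Pttg1, at under 40 CPM in each library, have the fewest counts behind them. Leaving out 1 library leaves 2 in its group, so calls lost there come with less data.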

Other observations

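Replicates of the G2 and mitosis genes were closer to each other in control than with butyrate. The median coefficient of variation over the 60 genes was 6.72% in control and 13.6% with butyrate (3 libraries each). In control the widest was Ccnb2, at 44.4%, followed by Kif23, at 27.3%, both high in replicate 3. With butyrate the widest were Cdc25b, at 37.9%, and Cdk1, at 29.4%, both lowest in replicate 3. Over all genes with 20 or more counts in a pair, chi-square over its degrees of freedom was 5.43 to 7.66 between control libraries. Between butyrate libraries it was 7.31 to 10.6. The wider spread with butyrate was thus not shown to be particular to the 60 genes. The difference in spread was not tested.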
